A study of Homo sapiens with 3 samples.

Results

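The G2/M and mitosis genes are 51 genes whose products take a cell from the end of DNA replication through mitosis to cytokinesis. They were taken as a list of gene symbols by known function, and all 51 were measured among the 19775 genes of the array. They were read by 97 probe sets, and the one that was brightest on average on the log2 scale stood for each gene. RNA came from Rh-30, an established line of alveolar rhabdomyosarcoma in which the PAX3-FOXO1 fusion gene is expressed. Cells received siPAX3-FOXO1 (siPF), which targets the junction of the fusion transcript, siB7-H3, which targets B7-H3 (CD276), or siControl (siCont). Each siRNA was transfected with Lipofectamine RNAiMAX at 5 nM, RNA was taken after 24 h, and 1 Affymetrix U133 Plus 2.0 array was run per condition. Each target was reached with a single siRNA in a single cell line, and each culture was measured in bulk. Since no condition had a second array, no replicate error exists and no test between conditions was possible, so each difference below lies between 2 arrays.

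Entry into mitosis is driven by CDK1 bound to cyclin A or cyclin B. CDC25 phosphatases activate CDK1, and polo-like and Aurora kinases act with it to separate centrosomes, build the spindle and attach chromosomes. The spindle checkpoint holds the anaphase-promoting complex until all kinetochores are attached, and destruction of securin and cyclin B then starts anaphase and exit. Most of these transcripts accumulate in G2 and M phase and are low in resting cells. The MuvB core complex binds a short promoter element called the cell cycle genes homology region (CHR). With the p130 pocket protein, as DREAM, it represses such genes in resting cells, and with B-MYB and FOXM1 it activates them in cycling cells. In myoblasts, terminal differentiation goes with exit from the cell cycle.

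The promoters of these genes often held the CHR element close to the start. RefSeq promoter windows (GRCh38.p14, 250 bases before to 50 bases after a transcription start) were matched for 44 of the 51 genes and gave 54 windows, some of which overlap within a gene. FOXM1, AURKA, TPX2, BIRC5, TTK, RACGAP1 and UBE2C were not matched. The letters TTTGAA or TTCGAA, searched on both strands, occurred in 37 of the 54 windows (68.5%), against 16.4% of all 35116 windows. CCAAT, the box bound by NF-Y, occurred on either strand in 42 windows (77.8%), against 34.6% of all windows. Both kinds stood in the same window in 32 cases (59.3%), against 6.38% of all windows. The E2F-type letters GGCGGG were found on either strand in 47 windows (87.0%), against 45.0%, and GGCGCG in 20 windows (37.0%), against 28.4%. Positions were shared as well. A CHR element began between 50 bases before and 25 bases after the start in 28 windows (51.9%), against 4.08% of all windows. A CCAAT box began between 100 and 25 bases before the start in 33 windows (61.1%), against 16.3%. A match of letters is a description and not a bound site. The 120 bases before the start are printed for 8 genes. CCNB2, PLK1 and MKI67 are shown for the usual layout, INCENP and PRC1 as genes that were higher on both knockdown arrays, and CDCA8 as a gene that was lower with siB7-H3. KIF20A and ECT2 are shown because the letters TTTGAA and TTCGAA are absent or lie far upstream. Other spellings of the element were not searched. The sequences run 5′ to 3′ on the strand of the gene. Capitals mark the CHR letters and CCAAT, with ATTGG being CCAAT read on the other strand.
CCNB2: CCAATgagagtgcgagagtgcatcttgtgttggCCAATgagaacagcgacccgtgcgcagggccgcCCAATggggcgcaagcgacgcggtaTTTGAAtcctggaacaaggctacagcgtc
PLK1: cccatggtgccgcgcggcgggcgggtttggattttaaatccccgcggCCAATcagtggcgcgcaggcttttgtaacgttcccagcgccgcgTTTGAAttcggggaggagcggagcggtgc
MKI67: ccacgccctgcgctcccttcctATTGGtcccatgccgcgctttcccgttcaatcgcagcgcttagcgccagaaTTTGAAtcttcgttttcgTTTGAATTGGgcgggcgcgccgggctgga
CDCA8: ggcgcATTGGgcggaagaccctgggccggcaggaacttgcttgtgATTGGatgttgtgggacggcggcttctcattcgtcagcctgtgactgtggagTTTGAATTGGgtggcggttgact
INCENP: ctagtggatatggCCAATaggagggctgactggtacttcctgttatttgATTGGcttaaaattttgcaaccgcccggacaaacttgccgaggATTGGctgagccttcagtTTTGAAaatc
PRC1: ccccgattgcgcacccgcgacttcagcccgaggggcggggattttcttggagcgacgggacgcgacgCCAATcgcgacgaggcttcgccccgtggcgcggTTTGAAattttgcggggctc
KIF20A: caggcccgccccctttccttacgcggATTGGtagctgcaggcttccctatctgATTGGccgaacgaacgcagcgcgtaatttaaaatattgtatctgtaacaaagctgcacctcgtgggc
ECT2: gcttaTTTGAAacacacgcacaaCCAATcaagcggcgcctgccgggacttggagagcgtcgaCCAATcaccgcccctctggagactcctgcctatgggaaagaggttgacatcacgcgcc

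On the plus strand these stretches lie at chr15:59105026-59105145 for CCNB2, chr16:23678769-23678888 for PLK1, chr1:37692396-37692515 for CDCA8 and chr11:62123891-62124010 for INCENP. KIF20A lies at chr5:138178992-138179111 and ECT2 at chr3:172750606-172750725, also on the plus strand, whereas MKI67 (chr10:128126424-128126543) and PRC1 (chr15:90994536-90994655) are on the minus strand. All lie directly upstream of an annotated transcription start. In CCNB2 and PLK1 the CHR element began 29 bases before the start, with the nearest CCAAT box beginning 54 bases before it in CCNB2 and 73 in PLK1. In MKI67 and CDCA8 a CHR element overlapped an ATTGG, and in ECT2 the element lay 115 bases before the start. Genes were also split by the CHR letters, as a description. The 34 genes with these letters in a window had a median log2 difference of 0.02 in siPF and -0.08 in siB7-H3. For the 10 matched genes without these letters it was 0.02 in siPF and -0.09 in siB7-H3. For the 7 genes that were not matched it was -0.01 in siPF and -0.21 in siB7-H3. Single genes ranged from -0.58 to 0.75 in siPF with the letters and from -0.14 to 0.93 in matched genes without them.

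**Figure D1:**
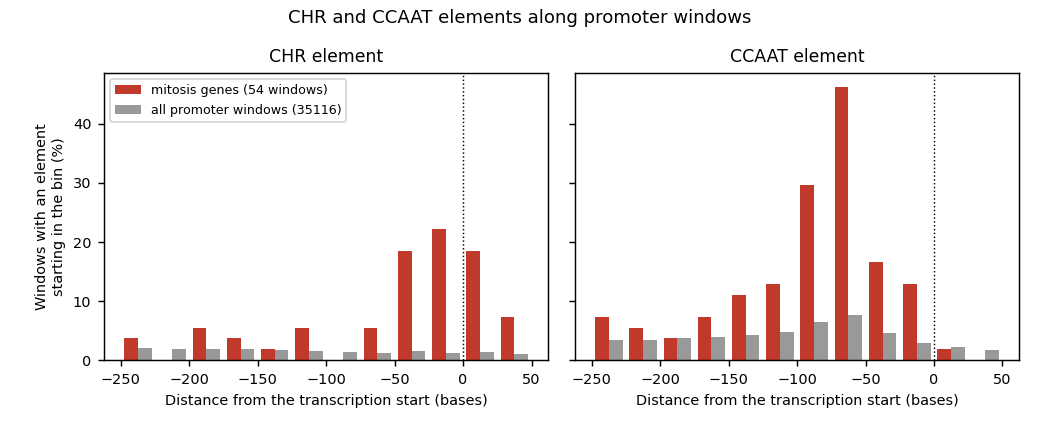
Share of promoter windows (vertical axis, %) in which a CHR element (left) or a CCAAT box (right) starts, in bins of 25 bases along the distance from the transcription start (horizontal axis, bases). Red bars are the 54 windows of mitosis genes and grey bars all 35116 windows. The CHR bars of the mitosis genes are highest in the 3 bins nearest the start, at 18.5% to 22.2%, and the CCAAT bars in the bin from 75 to 51 bases before it, at 46.3%.

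The genes were bright in Rh-30 cells under all 3 conditions. The files hold linear intensities, and those of different probe sets cannot be compared as amounts of transcript. The geometric mean intensity over the arrays ran from 490 (PLK1, 489.6) to 14346 (PTTG1), at percentiles 62.1 and 98.9 of all genes, and 29 of the 51 lay in the brightest 10% of genes. In all, 7292 genes (36.9%) lay in this range and are called genes of like level below. The scatter between arrays depends on the level, since the SD of the siPF log2 difference across genes was 1.86 in the dimmest 10% and 0.27 in the brightest. CD276 had an intensity of 362 in siB7-H3 and 1381 in siPF, against 1486 in siCont. Its log2 differences were -2.04 in siB7-H3 and -0.11 in siPF. FOXO1, which supplies the end of the fusion transcript, had 249 in siPF, against 678 in siCont, whereas PAX3, which supplies its beginning, had 329 in siPF, against 381 in siCont, a log2 difference of only -0.21. Of 13 measured markers of other cell types, 12 did not exceed 108 on any array, and the endothelial and blood cell marker PECAM1 had 621 in siPF, 910.1 in siB7-H3 and 699 in siCont.

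**Figure D2:**
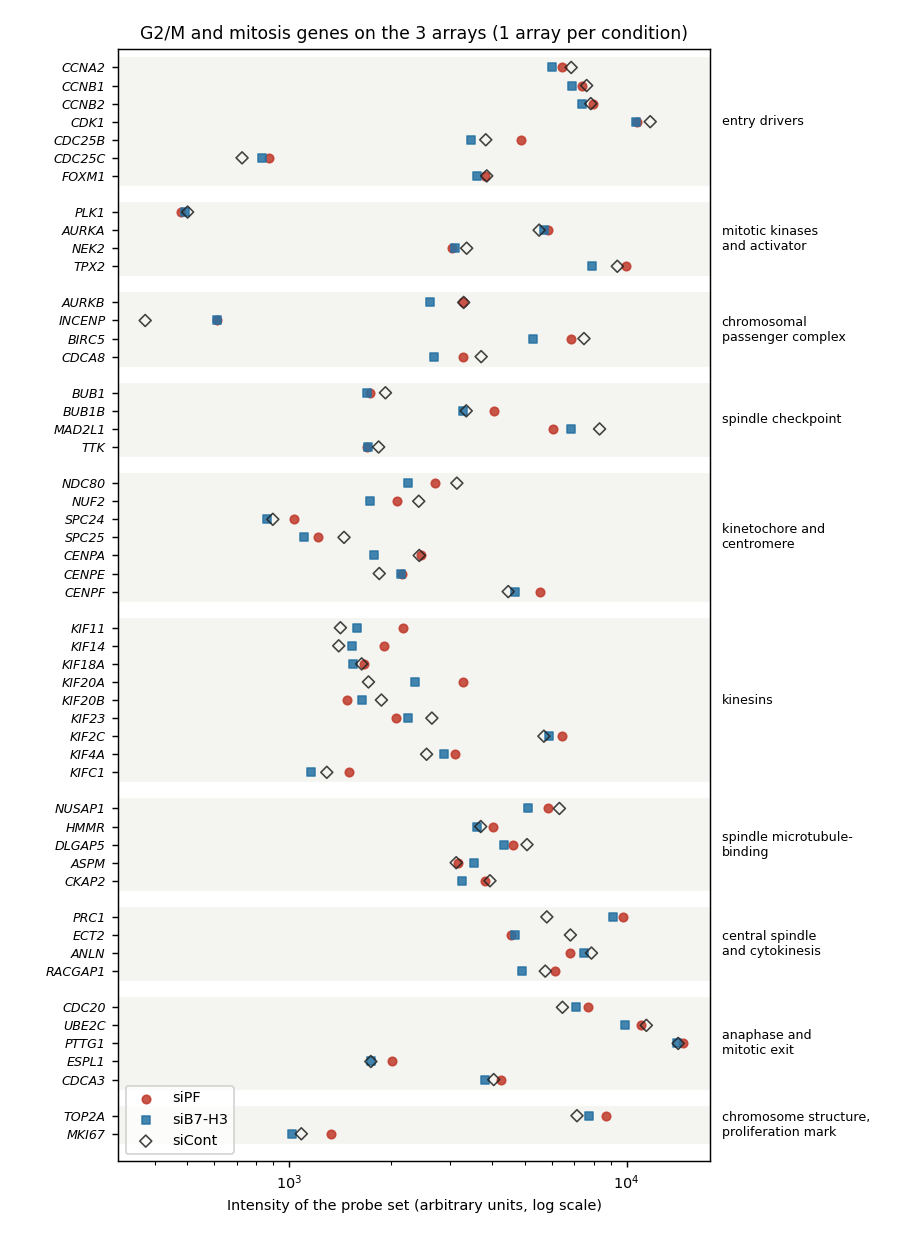
Intensity (horizontal axis, arbitrary units, log scale) of the chosen probe set of each of the 51 genes, listed by role. Red circles are siPF, blue squares siB7-H3 and open diamonds siCont, with 1 array each. Symbols of a gene mostly lie close together, and those of KIF20A, PRC1, INCENP, KIF11 and ECT2 are spread the widest.

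None of the 51 genes reached a 2-fold difference to siCont in either knockdown. In siPF, 0 of 51 genes reached a log2 difference of 1 in either direction, whereas 19.1% of all genes and 1.29% of the genes of like level did. In siB7-H3 it was also 0 of 51, against 18.2% of all genes and 1.07% of those of like level. At the share seen among genes of like level, fewer than 1 of 51 genes would be past 2-fold, so the 0 lies near the background. All 51 genes passed a rule on level, which asks that the brighter array of a pair reach the 60th percentile of all its probe sets (137 in siPF, 135 in siB7-H3 and 132 in siCont). In bulk RNA, fewer cells in G2 and M phase and less mitotic RNA per cell cannot be told apart.

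In siPF the genes were spread evenly around siCont, with 23 lower and 28 higher. Of all genes, 48.4% were lower and 51.6% higher, and of genes of like level 49% were lower and 51% higher. The median log2 difference of the 51 genes was 0.02, beside 0.02 over all genes and 0.01 over genes of like level. The SD was 0.30 across the 51 genes and 0.33 across genes of like level. The lowest gene was ECT2 at -0.58, and the highest was KIF20A at 0.93, a fold of 1.90. The central 90% of genes of like level ran from -0.50 to 0.54, and 46 of the 51 genes were inside it. Below it was ECT2, and above it were INCENP, KIF11, KIF20A and PRC1. Past a log2 difference of 0.5 in size, a limit chosen after the values were seen, 1 gene was lower and 4 were higher, where 4.96% of the genes of like level were lower and 5.83% higher.

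Most of the genes lay slightly below siCont with siB7-H3, 36 being lower and 15 higher. Of all genes, 49.5% were lower and 50.5% higher, and of genes of like level 47.6% were lower and 52.4% higher. The median log2 difference was -0.10, beside 0.00 over all genes (0.0045) and 0.01 over genes of like level. The SD was 0.26 across the 51 genes and 0.29 across genes of like level. The central 90% of genes of like level ran from -0.44 to 0.48, and 43 of the 51 genes were inside it. Below it were BIRC5, CDCA8, NDC80, NUF2, CENPA and ECT2, and above it were INCENP and PRC1. Past 0.5 in size, BIRC5 and ECT2 were lower and INCENP and PRC1 higher, where 3.59% of the genes of like level were lower and 4.53% higher. The siCont array is shared by both comparisons, and a deviation of that array would move both the same way.

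**Figure D3:**
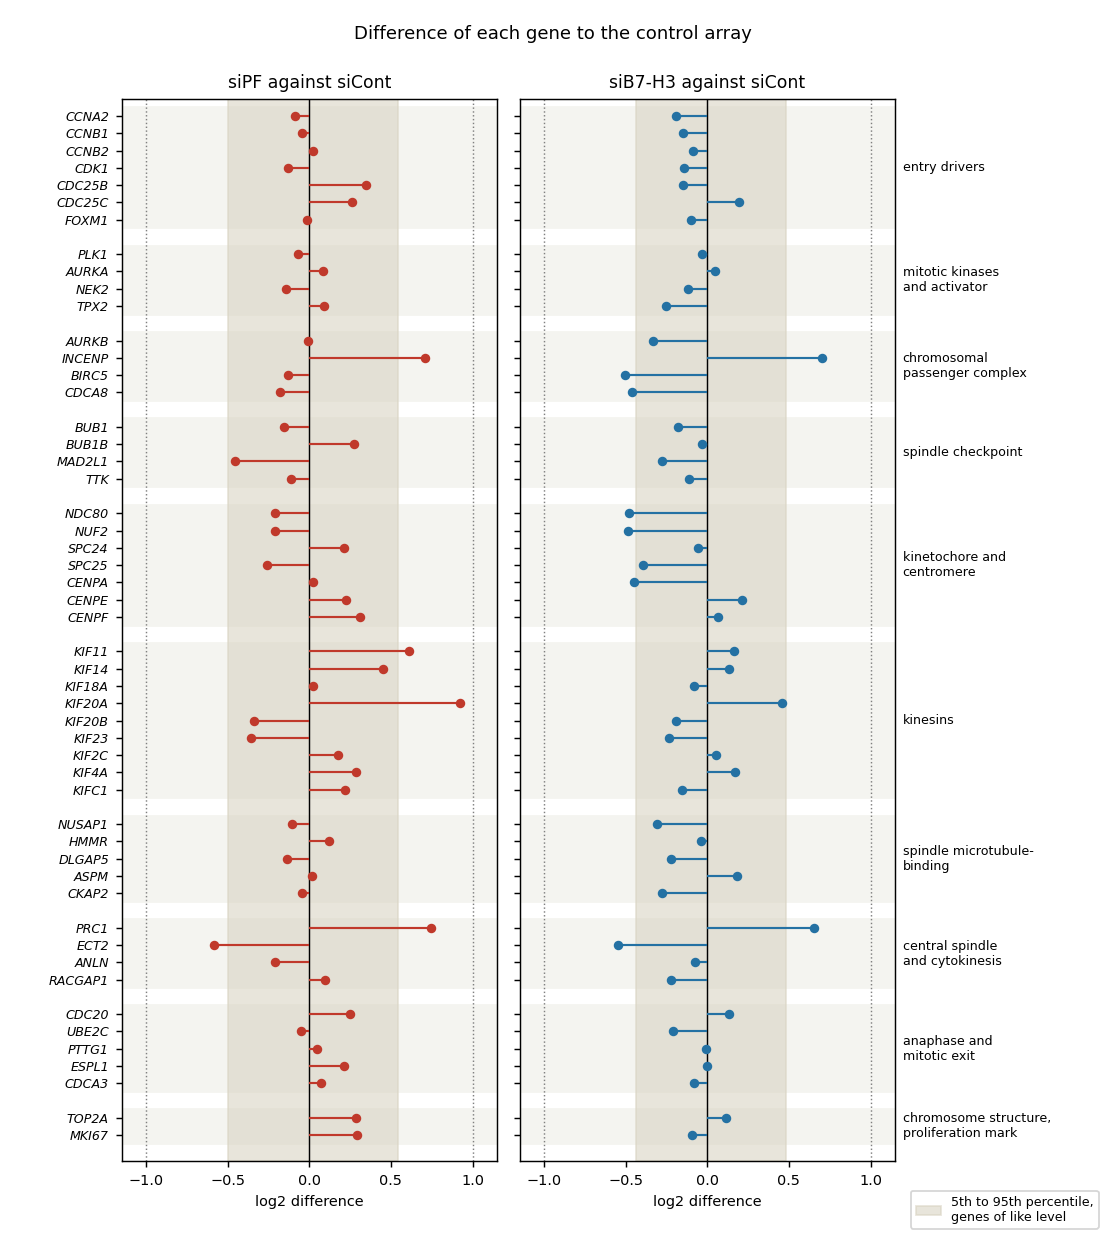
Log2 difference to siCont (horizontal axis) of each of the 51 genes in siPF (left) and siB7-H3 (right), by role. The shaded band holds the central 90% of the 7292 genes of like level, and dotted lines mark 2-fold. No gene reaches 2-fold, and 5 genes leave the band in siPF and 8 in siB7-H3.

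Most drivers of entry stayed close to siCont at their chosen probe sets. CDK1, the kinase that starts mitosis, had an intensity of 10718 in siPF, 10656 in siB7-H3 and 11747 in siCont, log2 differences of -0.13 in siPF and -0.14 in siB7-H3. CCNB1, which encodes cyclin B1, its main mitotic partner, had 7369 in siPF, 6872 in siB7-H3 and 7614 in siCont. CCNA2, the gene of cyclin A2, had 6439 in siPF, 6006 in siB7-H3 and 6853 in siCont. The differences of CCNA2, CCNB1, CCNB2 and CDK1, a group chosen after the values were seen, lay between -0.13 and 0.02 for siPF, and for siB7-H3 between -0.19 and -0.09. These partners thus differed little from siCont or from each other. FOXM1, the transcription factor that activates late cell cycle genes, had 3814 in siPF, 3598 in siB7-H3 and 3853 in siCont. The phosphatase genes were less alike. CDC25B had 4861 in siPF, 3457 in siB7-H3 and 3827 in siCont, and was above siCont in siPF and below it in siB7-H3, with log2 differences of 0.34 in siPF and -0.15 in siB7-H3. CDC25C had 872 in siPF, 831 in siB7-H3 and 726 in siCont, and was above siCont on both arrays.

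Mitotic kinases were also close to siCont at their chosen probe sets. PLK1, the polo-like kinase of centrosome maturation and mitotic entry, had 477 in siPF, 491 in siB7-H3 and 501 in siCont. AURKA, the Aurora kinase of spindle poles, had 5841 in siPF, 5702 in siB7-H3 and 5508 in siCont. NEK2, a centrosomal kinase, had 3048 in siPF, 3097 in siB7-H3 and 3359 in siCont. The log2 differences of these kinases were at most 0.14 in size, but not at all their probe sets. A second bright probe set of NEK2 gave -0.28 in siPF, where siB7-H3 had -0.45, and one of AURKA gave -0.11 in siPF, where siB7-H3 had -0.12, opposite in sign to the chosen one. TPX2, which activates Aurora A on the spindle, had 9975 in siPF, 7876 in siB7-H3 and 9386 in siCont, so that siB7-H3 was the low array, with a log2 difference of -0.25.

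The subunits of the chromosomal passenger complex, which corrects wrong attachments of chromosomes, went apart. INCENP, its scaffold, had 613 in siPF and 611 in siB7-H3, against 375 in siCont, log2 differences of 0.71 in siPF and 0.70 in siB7-H3. The other 3 subunits were below siCont, and further below it in siB7-H3 than in siPF. BIRC5, the gene of survivin, had 6835 in siPF, 5268 in siB7-H3 and 7477 in siCont, log2 differences of -0.13 in siPF and -0.51 in siB7-H3. CDCA8, the gene of borealin, had 3272 in siPF, 2693 in siB7-H3 and 3709.7 in siCont, log2 differences of -0.18 in siPF and -0.46 in siB7-H3. AURKB, the kinase of the complex, had 3276 in siPF, 2614 in siB7-H3 and 3292 in siCont, differences of -0.01 in siPF and -0.33 in siB7-H3. In siB7-H3 the subunits spanned 1.21 on the log2 scale. At the 3 further probe sets of BIRC5 the siB7-H3 differences were -0.44, -0.41 and -0.10, but the siPF differences were 0.13, 0.13 and 0.16 and thus opposite in sign to the chosen one. INCENP and CDCA8 had no further probe set.

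Spindle checkpoint genes were all below siCont in siB7-H3, with a median of -0.15 over 4 genes. Of genes of like level, 47.6% were below siCont there. MAD2L1, which encodes the checkpoint protein MAD2, had 6074 in siPF, 6858 in siB7-H3 and 8316 in siCont, log2 differences of -0.45 in siPF and -0.28 in siB7-H3. A further probe set of like brightness gave -0.06 in siPF and -0.22 in siB7-H3. Another, dimmer one gave -0.14 in siPF, where siB7-H3 had -0.41. MAD2L1 was thus below siCont at all 3 probe sets, but the order of the knockdown arrays turned round between them. BUB1B, the gene of the checkpoint protein BUBR1, had 4057 in siPF, 3273 in siB7-H3 and 3350.1 in siCont, and stood apart in siPF, with a log2 difference of 0.28. BUB1 and TTK, both checkpoint kinases, had differences between -0.18 and -0.11 on both arrays at their chosen probe sets. A second bright probe set of BUB1 gave 0.18 in siPF, where siB7-H3 had -0.22, so its direction in siPF depended on the probe set.

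Kinetochore and centromere genes had a median of -0.40 over 7 genes in siB7-H3, like the passenger complex, whereas in siPF it was 0.02. The NDC80 complex of 4 subunits is the rod that binds spindle microtubules. NUF2 had 2095 in siPF, 1734 in siB7-H3 and 2423 in siCont, and NDC80 had 2712 in siPF, 2249.9 in siB7-H3 and 3143 in siCont. Their log2 differences were alike, with -0.21 in siPF and -0.48 in siB7-H3 for NUF2, and -0.21 in siPF and -0.48 in siB7-H3 for NDC80. SPC25 had 1219 in siPF, 1107 in siB7-H3 and 1456 in siCont, differences of -0.26 in siPF and -0.40 in siB7-H3. SPC24 stood apart from its partners, with 1036 in siPF, 859.8 in siB7-H3 and 896 in siCont, differences of 0.21 in siPF and -0.06 in siB7-H3. CENPA, the histone H3 variant of centromeres, had 2468 in siPF, 1781 in siB7-H3 and 2432 in siCont, so that siB7-H3 was low while the other arrays were alike. NDC80, NUF2, SPC25 and CENPA had no further probe set. The large kinetochore proteins differed from these genes. CENPF, a farnesylated kinetochore protein, had 5529.9 in siPF, 4658 in siB7-H3 and 4461 in siCont. CENPE, a kinetochore kinesin, had 2160.0 in siPF, 2145 in siB7-H3 and 1851 in siCont. Both genes were above siCont on both knockdown arrays at these probe sets. A second bright probe set of CENPF gave -0.07 in siPF and -0.12 in siB7-H3, opposite in sign to the chosen one.

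Of the kinesins, 7 of 9 genes were above siCont in siPF, against 51% of genes of like level. Their median was 0.22, and KIF20A was the highest of the 51 genes. In siB7-H3, 5 of 9 were above siCont, against 52.4% of genes of like level, and the median was 0.05. KIF20A, which acts at the central spindle in anaphase and cytokinesis, had 3267 in siPF and 2362 in siB7-H3, against 1720.0 in siCont, log2 differences of 0.93 in siPF and 0.46 in siB7-H3. KIF11, the motor that pushes spindle poles apart, had 2171 in siPF, 1588 in siB7-H3 and 1420.4 in siCont, differences of 0.61 in siPF and 0.16 in siB7-H3. KIF14, which acts in cytokinesis, had 1918 in siPF, 1538 in siB7-H3 and 1404 in siCont. Its other bright probe set gave -0.06 in siPF, where siB7-H3 had -0.30, so that the direction of KIF14 depended on the probe set. KIF23, a subunit of centralspindlin, was the lowest of this group, with 2073 in siPF, 2249 in siB7-H3 and 2651 in siCont. KIF20B also lay below siCont, at -0.34 in siPF and -0.19 in siB7-H3. KIF2C, KIF4A, KIFC1 and KIF18A lay between 0.02 and 0.28 for siPF, and between -0.16 and 0.17 for siB7-H3. KIF20A and KIF11 had no second probe set.

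Genes of the central spindle and of cytokinesis were among the lowest and the highest. PRC1, which cross-links the antiparallel microtubules of the anaphase midzone, had 9747 in siPF and 9138 in siB7-H3, against 5804 in siCont, log2 differences of 0.75 in siPF and 0.65 in siB7-H3. PRC1 had no further probe set. KIF4A, the motor that PRC1 recruits, had 3111 in siPF, 2879 in siB7-H3 and 2556 in siCont, and was also above siCont on both arrays. ECT2, the exchange factor that activates RhoA at the division plane, had 4550.0 in siPF and 4668 in siB7-H3, against 6816 in siCont, log2 differences of -0.58 in siPF and -0.55 in siB7-H3. A second bright probe set of ECT2 had 1244.5 in siPF, 1086 in siB7-H3 and 1055 in siCont, log2 differences of 0.24 in siPF and 0.04 in siB7-H3, so a lower ECT2 level rested on 1 probe set. RACGAP1, the partner of KIF23 in centralspindlin, had 6139 in siPF, 4915 in siB7-H3 and 5743 in siCont. ANLN, the gene of the contractile ring protein anillin, had 6815 in siPF, 7454 in siB7-H3 and 7868 in siCont. Its second bright probe set gave 0.11 in siPF and 0.04 in siB7-H3, opposite in sign to the chosen one. For INCENP, PRC1 and ECT2 the knockdown arrays were close to each other and siCont was the one apart. Between siPF and siB7-H3 directly, INCENP differed by 0.00 (0.0049), PRC1 by 0.09 and ECT2 by -0.04.

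Genes of spindle microtubule-binding proteins were mostly lower in siB7-H3, with 4 of 5 below siCont and a median of -0.22. Of genes of like level, 47.6% were below siCont there. NUSAP1, which bundles spindle microtubules, had 5866 in siPF, 5108 in siB7-H3 and 6324 in siCont. Its second bright probe set gave 0.23 in siPF, opposite in sign to the chosen one, and -0.03 in siB7-H3. DLGAP5, which stabilizes kinetochore fibres, had 4603 in siPF, 4345 in siB7-H3 and 5071 in siCont. HMMR, a spindle and centrosome protein, had 4023 in siPF, 3601 in siB7-H3 and 3698 in siCont. CKAP2 had differences of -0.05 in siPF and -0.28 in siB7-H3. The exception was ASPM, which acts at spindle poles, with 3159 in siPF, 3542 in siB7-H3 and 3129 in siCont. ASPM alone among the 51 genes was highest in siB7-H3, and its further bright probe sets were also above siCont there, by 0.25 and 0.16.

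Genes of anaphase and exit were near siCont at their chosen probe sets. CDC20, the activator of the anaphase-promoting complex, had 7684 in siPF, 7076 in siB7-H3 and 6457 in siCont, log2 differences of 0.25 in siPF and 0.13 in siB7-H3. UBE2C, the ubiquitin-conjugating enzyme of that complex, had 11024 in siPF, 9874 in siB7-H3 and 11442 in siCont, differences of -0.05 in siPF and -0.21 in siB7-H3. PTTG1, the gene of securin, was at 0.05 in siPF and -0.01 in siB7-H3, and ESPL1, the gene of separase, at 0.21 in siPF and 0.00 in siB7-H3. CDCA3, a mitotic entry factor, was at 0.07 in siPF and -0.08 in siB7-H3. The second bright probe set of ESPL1 gave 0.40 in siPF and -0.10 in siB7-H3. That of CDCA3 gave 0.02 in siPF and -0.21 in siB7-H3. MKI67, the gene of the proliferation marker Ki-67, had 1332 in siPF, 1020.5 in siB7-H3 and 1088 in siCont. All 4 of its probe sets were above siCont in siPF, by 0.16 to 0.45, whereas in siB7-H3 they ran from -0.12 to 0.09. TOP2A, the topoisomerase that untangles sister chromosomes, had 8707 in siPF, 7719.6 in siB7-H3 and 7128 in siCont. Its second bright probe set gave -0.13 in siPF, where the chosen one gave 0.29, so its direction was not settled either.

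Set directly against siB7-H3, siPF was higher in most of the genes, by small amounts. It was higher in 42 of the 51 genes and lower in 9. Of all genes, 51.7% were higher and 48.3% lower, and of genes of like level 49% were higher and 51% lower. The median log2 difference was 0.12, beside 0.01 over all genes and 0.00 over genes of like level (-0.0046). Reaching 2-fold were 0 of 51 genes, against 18.9% of all genes and 0.891% of those of like level. Past 0.5 in size there were also 0 at the chosen probe sets. Of the genes of like level, 3.74% were lower and 3.29% higher by that much. Further bright probe sets passed 0.5 in BIRC5, at 0.57 and 0.54, and in ASPM, at -0.51. The SD was 0.17 across the 51 genes and 0.28 across genes of like level. At the chosen probe sets the highest were CDC25B at 0.49, CENPA at 0.47, KIF20A at 0.47 and KIF11 at 0.45. The lowest was MAD2L1 at -0.18. All 7 entry drivers, all 7 kinetochore genes, all 4 passenger complex genes and all 5 anaphase genes were higher in siPF than in siB7-H3. CDK1, CENPE and INCENP among them differed by at most 0.01. Higher in siPF were also 7 of 9 kinesins, 4 of 5 spindle microtubule-binding genes, TOP2A and MKI67. The mitotic kinases with TPX2, the checkpoint genes and the central spindle and cytokinesis genes were each split, with 2 of 4 higher.

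The same pattern can be read as the order of the 3 arrays. In 28 of the 51 genes siB7-H3 was lowest, and in 1 it was highest, whereas among genes of like level it was lowest in 29.8% and highest in 33.2%. The siPF array was lowest in 8 and highest in 27, against 33.6% and 33.5%. The siCont array was lowest in 15 and highest in 23, against 36.6% and 33.2%. Genes above siCont in siPF and below it in siB7-H3 numbered 13, against 14.3%, and 0 genes had the opposite pattern, against 15.8%. Both knockdown arrays were above siCont in 15 genes, against 36.6%, and both were below it in 23, against 33.2%. Transcripts of this programme vary together, so that the genes are not independent readings, and the shift of 0.12 could not be set against any replicate error.

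**Figure D4:**
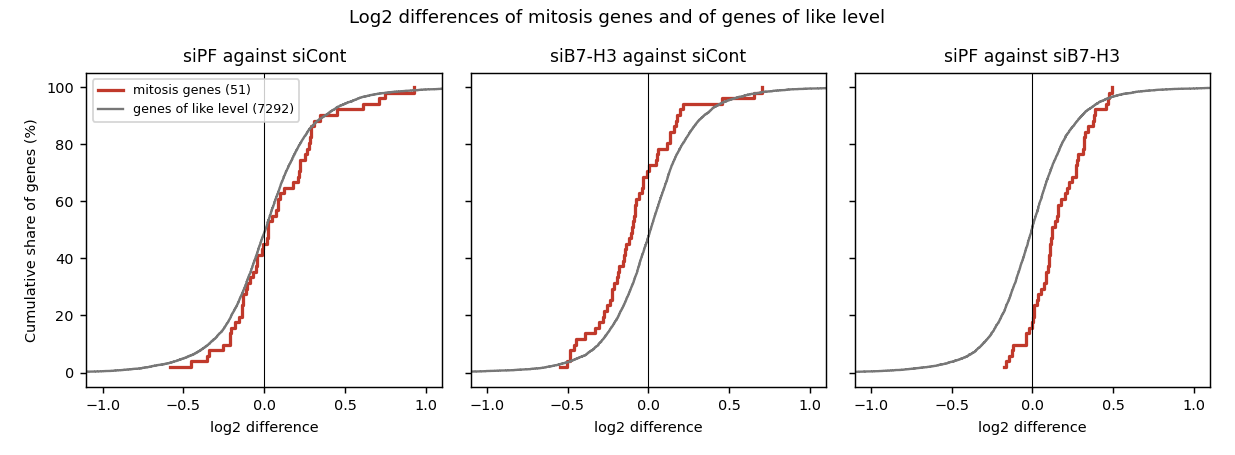
Cumulative share of genes (vertical axis, %) by log2 difference (horizontal axis) in siPF against siCont, siB7-H3 against siCont and siPF against siB7-H3. Red steps are the 51 mitosis genes and grey the 7292 genes of like level. Medians are 0.02 and 0.01 in the first panel, -0.10 and 0.01 in the second, where red lies left of grey, and 0.12 and 0.00 in the third, where it lies right of it.

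Further probe sets gave a second reading of the same RNA. Of the 51 genes, 27 had more than 1 probe set, with 46 further probe sets in all. Of these, 28 probe sets of 20 genes were at least as bright as PLK1, the dimmest member, and 0 of the 28 reached 2-fold in any comparison. Their median deviation from the chosen probe set, in absolute log2 units, was 0.22 for siPF and 0.13 for siB7-H3. Over 2953 genes with a second bright probe set it was 0.16 for each. A difference to siCont of about this size is thus within the usual disagreement between probe sets of one gene. The sign was the same as at the chosen probe set for 14 of 28 in siPF and for 17 of 28 in siB7-H3. Over the 2953 genes it was the same at the second probe set for 2012 in siPF and for 1987 in siB7-H3. In the direct comparison 25 of the 28 were higher in siPF than in siB7-H3. So were 19 of the 20 genes when probe sets were combined by gene, with ASPM the exception. Of genes of like level, 49% were higher at their chosen probe set. The remaining 18 probe sets had mean intensities from 11.7 to 236, and 5 of them were past 2-fold in siPF and 2 in siB7-H3. CCNB2 shows this contrast. Its chosen probe set had 7950.2 in siPF, 7377 in siB7-H3 and 7833 in siCont. A dim one had 61.2 in siPF, 42.6 in siB7-H3 and 25.8 in siCont, a siPF log2 difference of 1.25, against 0.02 at the chosen one.

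**Figure D5:**
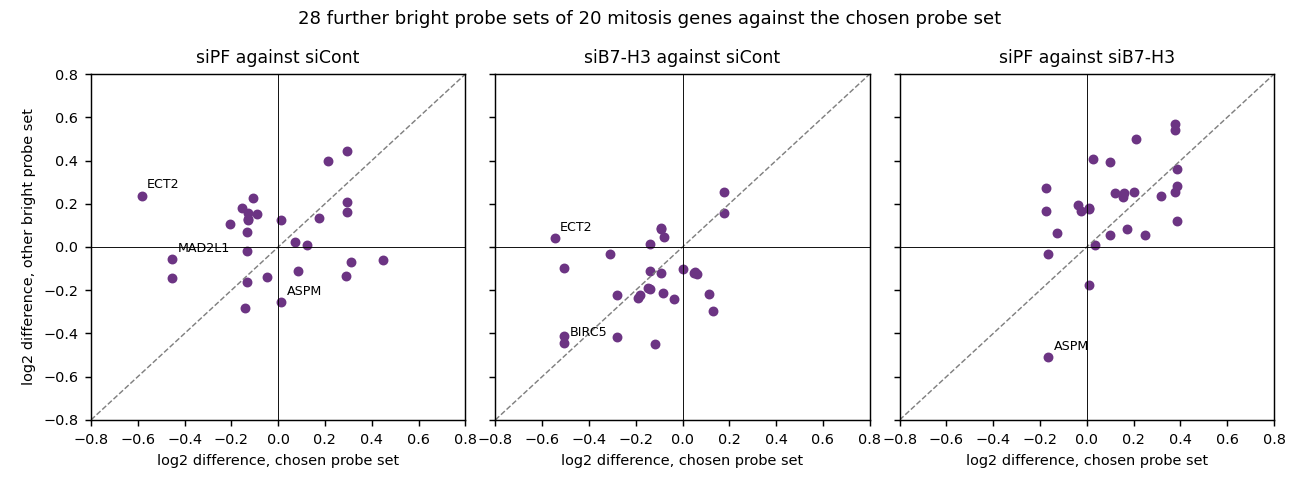
Log2 difference at the chosen probe set (horizontal axis) and at each of 28 further bright probe sets of 20 mitosis genes (vertical axis), in siPF against siCont, siB7-H3 against siCont and siPF against siB7-H3. The dashed line marks equal values. ECT2 lies far from the line in both comparisons with siCont (-0.58 and 0.24 in siPF, -0.55 and 0.04 in siB7-H3), and in the third panel 25 of 28 points lie above 0 on the vertical axis.

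A wider list of mitotic machinery genes was set beside the 51. It held condensin, cohesin, further kinetochore, anaphase-promoting complex, entry, spindle and centrosome genes, and 113 were measured. In siPF 54 were lower and 59 higher, with a median log2 difference of 0.00 (0.0047), and in siB7-H3 74 were lower and 39 higher, with a median of -0.07. Of genes of like level, 47.6% were lower in siB7-H3 and 49% in siPF. None of the 113 was past 2-fold in either, and siPF was higher than siB7-H3 in 78 of 113, with a median of 0.08, where 49% of genes of like level were higher. Below siCont in siB7-H3 were 12 of 14 further entry regulators, 22 of 30 further kinetochore genes, 10 of 16 anaphase-promoting complex genes, 17 of 30 spindle and centrosome genes, 5 of 8 condensin genes and 8 of 15 cohesin genes. The 30 further kinetochore genes had a median of -0.12 in siB7-H3, beside -0.40 for the 7 kinetochore and centromere genes among the 51. Cohesin genes, which hold sister chromatids together, had a direct median of -0.01, with 8 lower and 7 higher in siPF than in siB7-H3. Of 21 S-phase and replication genes, which act before mitosis, 16 were higher in siPF (median 0.06) and 17 were lower in siB7-H3 (median -0.13), and 19 were higher in siPF than in siB7-H3 (median 0.22).

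Among regulators of the programme, those that passed the level rule showed no 2-fold difference either. MYBL2, the gene of B-MYB, had 3786 in siPF, 3123 in siB7-H3 and 3151 in siCont. RBL2, which encodes p130, the pocket protein of DREAM, had 1817 in siPF, 2703 in siB7-H3 and 2459 in siCont, log2 differences of -0.44 in siPF and 0.14 in siB7-H3. CDKN1A, the gene of the kinase inhibitor p21, had 2163 in siPF, 1875 in siB7-H3 and 2161 in siCont. CDKN1B, the gene of p27, had 5183 in siPF, 4049.6 in siB7-H3 and 4963 in siCont, and was thus lowest in siB7-H3, as most of the mitosis genes were. CDKN1C, the gene of p57, was dim, with at most 31.0 on any array. Of 8 genes of brakes on the cycle that passed the level rule, 5 were lower in siPF and 7 in siB7-H3, and 0 were past 2-fold. Of all genes passing it, 47.5% were lower in siPF and 2.50% past 2-fold. In siB7-H3, 47.2% were lower and 1.61% past 2-fold.

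Of 12 muscle genes that passed the level rule, 9 were higher and 3 lower in siPF, and 11 were higher and 1 lower in siB7-H3. Past 2-fold were 3 of them in siPF and 1, MYOG, in siB7-H3. Of all genes passing the level rule, 52.5% were higher in siPF and 2.50% past 2-fold. In siB7-H3, 52.8% were higher and 1.61% past 2-fold. MYOG, the gene of the differentiation factor myogenin, had 3386 in siPF and 1269 in siB7-H3, against 605 in siCont, log2 differences of 2.48 in siPF and 1.07 in siB7-H3. TNNI1, the gene of slow skeletal troponin I, had 4121 in siPF and 2763 in siB7-H3, against 1970.5 in siCont. MYL4, the gene of an embryonic myosin light chain, had 1542 in siPF and 845 in siB7-H3, against 724 in siCont. Both were past 2-fold in siPF, at 1.06 for TNNI1 and 1.09 for MYL4. Lower in siPF were MYOD1, MYF5 and FGFR4. MYF5, an early myogenic factor, had 213 in siPF, 342 in siB7-H3 and 415 in siCont, log2 differences of -0.96 in siPF and -0.28 in siB7-H3. FGFR4, a growth factor receptor, had 5182 in siPF, 7099.6 in siB7-H3 and 6854 in siCont. MYOD1, the myogenic factor already present in myoblasts, had 8688 in siPF, 13046 in siB7-H3 and 11471 in siCont. The median over the 12 muscle genes was 0.68 in siPF, and 0.29 in siB7-H3, beside 0.02 in siPF and -0.10 in siB7-H3 for the mitosis genes. Whether the differences of muscle and mitosis genes are linked was not tested.

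The scaling of the arrays set the sign of small differences to siCont. Ribosomal protein genes were above siCont in 34 of 36 cases on each knockdown array, with a median of 0.25 for siPF and 0.23 for siB7-H3. The 18 probe sets of hybridization controls, which are added to the sample and not made by the cells, had a median of 0.23 for each. With arrays centred on ribosomal protein genes, the median of all genes was -0.24 in both comparisons, and 39 of the 51 mitosis genes were lower in siPF (median -0.24) and 48 in siB7-H3 (median -0.35). Relative to all genes the mitosis genes were then at 0.00 in siPF (0.0049) and -0.10 in siB7-H3. The direct comparison of siPF with siB7-H3 was hardly touched, with 39 genes higher and a median of 0.11.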

How the data were processed

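Rh-30 RNA was measured with 3 Affymetrix U133 Plus 2.0 arrays, 1 per siRNA. The deposited values are intensities, 1 per probe set and array on a linear scale, for which the submitters' processing notes name Affymetrix Expression Console 1.4.1. The summarization method is not given in the sources used here. The trimmed mean (2% of probe sets left out at each end) came to 500.1 on every array. With 1 array per condition the number of arrays limits the precision.

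Values were log2 transformed without a floor or filter. Of 54675 probe sets, the platform annotation names 41091 with 1 gene, and symbols were updated through RefSeq. It names 1801 with several genes, which were left out, and 7 of these include a mitosis gene. Each knockdown was compared with siCont and with the other as a difference of log2 intensity, and a difference of 1 or more in size counted as 2-fold, with no test. The mitosis genes, the lists and the alternatives were chosen with earlier results of these data known. The range of like level, the limit of 0.5 and the printed promoters were chosen after the values were seen.

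Named with values were genes past 2-fold, the lowest and highest gene of each role in siPF and in siB7-H3, and CCNB1, CDK1, PLK1, FOXM1, MKI67 and TOP2A. From other lists, genes past 2-fold under the level rule were named, as were CDKN1A, CDKN1B, CDKN1C, MYBL2, RBL2, MYOG and MYOD1, and FOXO1, PAX3 and CD276 for the knockdowns. Other genes, PECAM1 among them, were named after their values were seen. Python 3.11.15 was used with numpy 2.4.6, pandas 2.3.3, scipy 1.17.1 and, for figures, matplotlib 3.10.9. The code was tested on simulated data.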

Additional observations from a re-analysis of the deposited data

How the results depend on the processing

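No paired analysis was possible because each condition had 1 array. Over 12 alternatives the median of the mitosis genes ran from -0.24 to 0.07 for siPF, from -0.35 to -0.09 for siB7-H3 and from 0.10 to 0.23 for siPF against siB7-H3, so that its sign held in the last 2 and not in siPF. With arrays centred on ribosomal protein genes, which moves all genes down by construction, 39 genes were lower and 12 higher in siPF (median -0.24), and 3 were higher in siB7-H3 (median -0.35). With every probe set counted on its own, which raises the number of items from 51 to 97, siPF had 41 lower, 56 higher and 5 past 2-fold, and siB7-H3 had 64 lower, 33 higher and 2 past 2-fold. With the median over all probe sets in place of the brightest, 1 gene was past 2-fold in siPF, namely CCNB2 at 1.25, through its dim probe sets. With only the other bright probe sets, an alternative chosen after seeing the data that covers 20 genes, 9 were lower and 11 higher in siPF, 16 were lower and 4 higher in siB7-H3, and the median of siPF against siB7-H3 was 0.23. With each array centred on its median, 26 genes were lower and 25 higher in siPF. Without probe sets that can bind several transcripts, KIF23 was at 0.22 in siPF and 0.41 in siB7-H3, read from a dim probe set, and TOP2A was at -0.13 in siPF and -0.22 in siB7-H3. The brightest single value, quantile normalization, the rule on level, a floor and a pseudocount of 32 left each count within 1.5 times. No measure of signal over background was used here, so dim probe sets were judged by intensity alone.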
